A study of Mus musculus with 8 samples.

Results

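The 5 microRNAs (miRNAs) mmu-miR-690, mmu-miR-709, mmu-miR-720, mmu-miR-1187 and mmu-miR-1895 (written below without the species prefix), several of them registry entries of uncertain standing, were followed in basal progenitors of the embryonic mouse cortex. They were taken from 611 mouse miRNAs on the array by name, and they were chosen by their scaled signals, which were far higher on one array of the later stage, E16 replicate 4, than on another, E16 replicate 1. The values of those 2 arrays are therefore given as a description, with no test. Basal progenitors sorted by fluorescence from wild-type cortex at embryonic day 13 (E13) were compared with such cells at embryonic day 16 (E16), with 4 biological replicates per stage and 1 one-colour Agilent miRNA array for each replicate. The design text speaks of 3 litters for each stage, so some of the 4 replicates may be littermates if each came from 1 litter, and the p-values measure no more than the spread of these 8 samples. The sorting gate and the mouse strain are not given in the sources used here.

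MicroRNAs are short RNAs cut from hairpin precursors by Drosha and Dicer and loaded into Argonaute proteins, where bases 2 to 8, the seed, pair with target transcripts. Basal progenitors are the dividing cells of the subventricular zone that give rise to cortical neurons, and they are rich in the neural miRNA miR-9. Some entries of the early miRNA registry came from few cloned reads and were later questioned or withdrawn. miR-720 is the best known of these, since its sequence matches the 3′ part of a threonine transfer RNA, and such an RNA can reach an array probe without any hairpin being processed. miR-709 has been described in mouse cells as a largely nuclear RNA. For miR-690, miR-1187 and miR-1895 no function is given here.

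The mature sequences of 3 of the 5 were found in RefSeq (GRCm38.p6, all on the minus strand). They are shown because their base make-up sets these RNAs apart from each other, with the seed in capitals, 5′ to 3′.
miR-690: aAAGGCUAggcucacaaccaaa
miR-1187: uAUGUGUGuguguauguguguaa
miR-1895: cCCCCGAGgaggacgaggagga
No seed was shared. miR-1187 is an alternation of U and G, with 11 such bases in its longest unbroken run, and 34.8% of its bases are G or C. miR-1895 holds no U, 72.7% of its bases are purines and 72.7% are G or C. miR-690 lies between them with 45.5% G or C.

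Each of the 5 was measured by 2 probes that share all bases but the last, and the pairs are shown because a single base moved the signal of some of them. Probes are complementary to the 3′ part of the miRNA and are written 5′ to 3′, and the capital marks the base that the longer probe adds.
miR-690 shorter: tttggttgtgagcct
miR-690 longer: tttggttgtgagcctA
miR-709 shorter: tcctcctgcct
miR-709 longer: tcctcctgcctC
miR-720 shorter: tggaggcccca
miR-720 longer: tggaggccccaG
miR-1187 shorter: ttacacacatacacacac
miR-1187 longer: ttacacacatacacacacA
miR-1895 shorter: tcctcctcgtcctc
miR-1895 longer: tcctcctcgtcctcC
The longer probes of miR-709 and miR-720 have 12 bases, against a median of 17 for the brightest probes of all 611 mouse miRNAs, and 15.5% of miRNAs had a brightest probe that short. With 75% G or C the miR-720 probe stood among the 2.95% of miRNAs whose brightest probe held at least as much. The probes of miR-709 and miR-1895 both open with TCCTCC, a run found in the probes of 4 of the 611 miRNAs (0.655%), while its reverse complement was found in those of 5 (0.818%). Repeats of CA (CACACA or ACACAC) were found in the probes of 24 miRNAs (3.93%), of which miR-1187 is 1, and the reverse complement in those of 20 (3.27%).

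The files, whose headers name mm9 as their build, place the brightest probe of miR-690 at chr16:28600111-28600124, that of miR-709 at chr8:86610074-86610084, that of miR-720 at chr3:88920583-88920593, that of miR-1187 at chr5:83228053-83228070 and that of miR-1895 at chr3:133903524-133903537. Each span is 1 base shorter than its probe as the files write it. In the RefSeq annotation of GRCm38, Mir690 overlaps Fgf12, a fibroblast growth factor homologue of neurons, Mir709 overlaps Rfx1, a transcription factor gene, and Mir1895 overlaps Cxxc4, an inhibitor of Wnt signalling. Mir1187 overlaps no other gene there. The annotation used gives gene spans only, so that exon and intron were not assigned.

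All 5 miRNAs were tested, among 153 in all, where 1 probe had to stand well above background on 4 arrays or more. miR-690, miR-709, miR-720 and miR-1187 were well above background on all 8 arrays. miR-1895 was so on 4 E13 arrays and 3 E16 arrays, and the exception was E16 replicate 3. Among 69 other mouse miRNAs with registry numbers close to theirs, 8 were well above background on at least 1 array and 2, miR-702 and miR-689, were tested.

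Arrays differed in brightness. The 75th percentile of the processed signal over the 126 probes well above background on all arrays ran from 162 to 490 at E13 and from 109 to 748 at E16. It was 609 on E16 replicate 1 and 109 on E16 replicate 4, a ratio of 5.60. E16 replicate 4 also had the fewest miRNAs above background (76, against 119 to 206 on the other arrays). E16 replicate 1 was alone on slide 1, slide 2 held E13 replicates 1 and 2 and E16 replicates 2 and 3, and slide 3 held E13 replicates 3 and 4 and E16 replicate 4. Arrays of E13 lay in row 2 of their slides and arrays of E16 in row 1, and the effects of row and stage cannot be told apart. Among neural markers, all of miR-9, miR-9*, miR-124 and miR-128 were well above background on all 8 arrays, with a summed signal of 2312 to 8431 at E13 and 1226 to 11595 at E16, and the lowest and highest E16 sums were those of replicates 4 and 1. After division by the 75th percentile, E16 replicate 4 minus replicate 1 was -2.19 log2 units for miR-124 and -1.87 for miR-128. These were ranks 76 and 75 of the 76 tested miRNAs above background on both arrays. The difference was -0.49 for miR-9 and -0.76 for miR-9*. None of 12 markers of red cells, leukocytes, endothelium, muscle or liver rose above background on any array, and their sums per cell type stayed between 0 and 3.38.

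Before any scaling, none of the 5 miRNAs was as much dimmer on E16 replicate 4 than on E16 replicate 1 as the 75th percentile was. That was fixed by the choice of miRNAs with higher scaled signals on replicate 4, and nothing is read from it. For miR-690 the processed signals, background-subtracted spot intensities in arbitrary units, were 12.0, 28.9, 52.4 and 42.2 on E13 replicates 1 to 4 and 12.8, 67.9, 23.2 and 25.9 on E16 replicates 1 to 4. E16 replicate 2 was highest, and E13 replicate 1 and E16 replicate 1 were lowest. For miR-709 the signals were 241, 592, 447 and 336 at E13 and 315, 835, 285 and 574 at E16, so that E16 replicate 4 exceeded all arrays but E13 replicate 2 and E16 replicate 2. For miR-720, the transfer RNA-like entry, they were 1847, 3498, 2573 and 2344 at E13 and 2171, 3491, 1643 and 1554.5 at E16. Here E16 replicate 4 was the lowest of all 8 arrays.

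miR-1187 had processed signals of 33.8, 47.2, 126 and 92.8 on E13 replicates 1 to 4 and of 19.4, 89.9, 21.4 and 37.9 on E16 replicates 1 to 4. E13 replicates 3 and 4 and E16 replicate 2 were high. miR-1895 had signals of 10.4, 15.8, 25.999 and 20.4 at E13 and 11.4, 33.5, 7.72 and 9.77 at E16. In all 5 miRNAs the unscaled values of the stages overlapped. Spots of a probe on 1 array, of which 8 to 10 were kept, varied with a coefficient of variation of 1.16% to 8.31% for miR-720, 3.35% to 10.2% for miR-709, 3.53% to 12.3% for miR-1187, 4.19% to 22.0% for miR-690 and 5.54% to 22.0% for miR-1895.

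**Figure D1:**
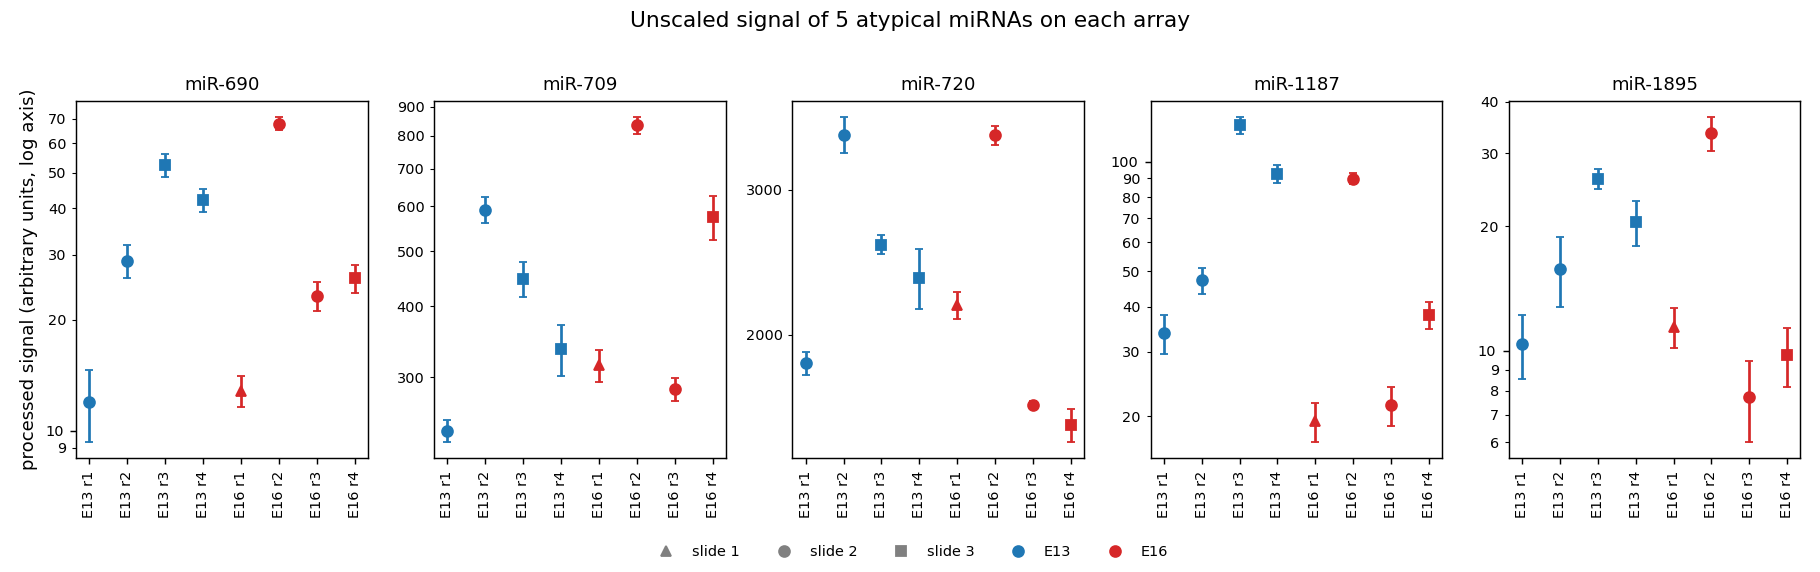
Processed signal (arbitrary units, log axis) of the brightest probe of each miRNA on each array, with bars for the SD over the spots of that array; colour gives the stage and symbol the slide. E16 replicate 2 was the highest E16 array in each panel, and for miR-720 E16 replicate 4 was the lowest array at 1554.5.

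The unscaled signal of miR-720 moved least of all. Its highest array was 2.25 times its lowest over 8 arrays, where the other 71 miRNAs well above background on all arrays had a median ratio of 9.18 and none had a smaller one. The ratio was 3.46 for miR-709, with 1 of the 71 smaller, 5.68 for miR-690, with 6 smaller, and 6.51 for miR-1187, with 12 smaller. The 75th percentile itself differed 6.88-fold between arrays. Since E16 replicates 1 and 4 entered the choice of the 5 miRNAs, the ratios were also taken over the other 6 arrays. There miR-720 remained below all 71 others (2.13, against a median of 4.42), while miR-709 had 18 of 71 below it, miR-690 51 and miR-1187 52. miR-1895, not above background on E16 replicate 3, was left out of these ratios.

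Scaling each array to its 75th percentile placed E16 replicate 4 at the top and E16 replicate 1 at the bottom of all 8 arrays for each of the 5 miRNAs. For miR-690 the log2 scaled signals were -3.76, -3.45, -3.22 and -2.80 on E13 replicates 1 to 4 and -5.57, -3.46, -3.60 and -2.07 on E16 replicates 1 to 4. For miR-709 they were 0.57, 0.90, -0.13 and 0.19 at E13 and -0.95, 0.16, 0.019 and 2.40 at E16. E16 replicates 2 and 3 lay within the E13 range for both. For miR-720 the log2 scaled signals were 3.51, 3.47, 2.39 and 2.997 at E13 and 1.83, 2.22, 2.54 and 3.84 at E16. For miR-1187 they were -2.26, -2.75, -1.96 and -1.66 at E13 and -4.97, -3.06, -3.72 and -1.52 at E16, so that 3 of the 4 E16 arrays lay below all E13 arrays and the fourth above them. miR-1895 had the same arrangement, with -3.97, -4.33, -4.24 and -3.85 at E13 and -5.74, -4.48, -5.19 and -3.48 at E16. The stages overlapped in all 5 miRNAs, while 38.6% of all tested miRNAs had no overlap between stages. E16 replicates 1 and 4 entered the choice, which favours such overlap, so that nothing is read from it.

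**Figure D2:**
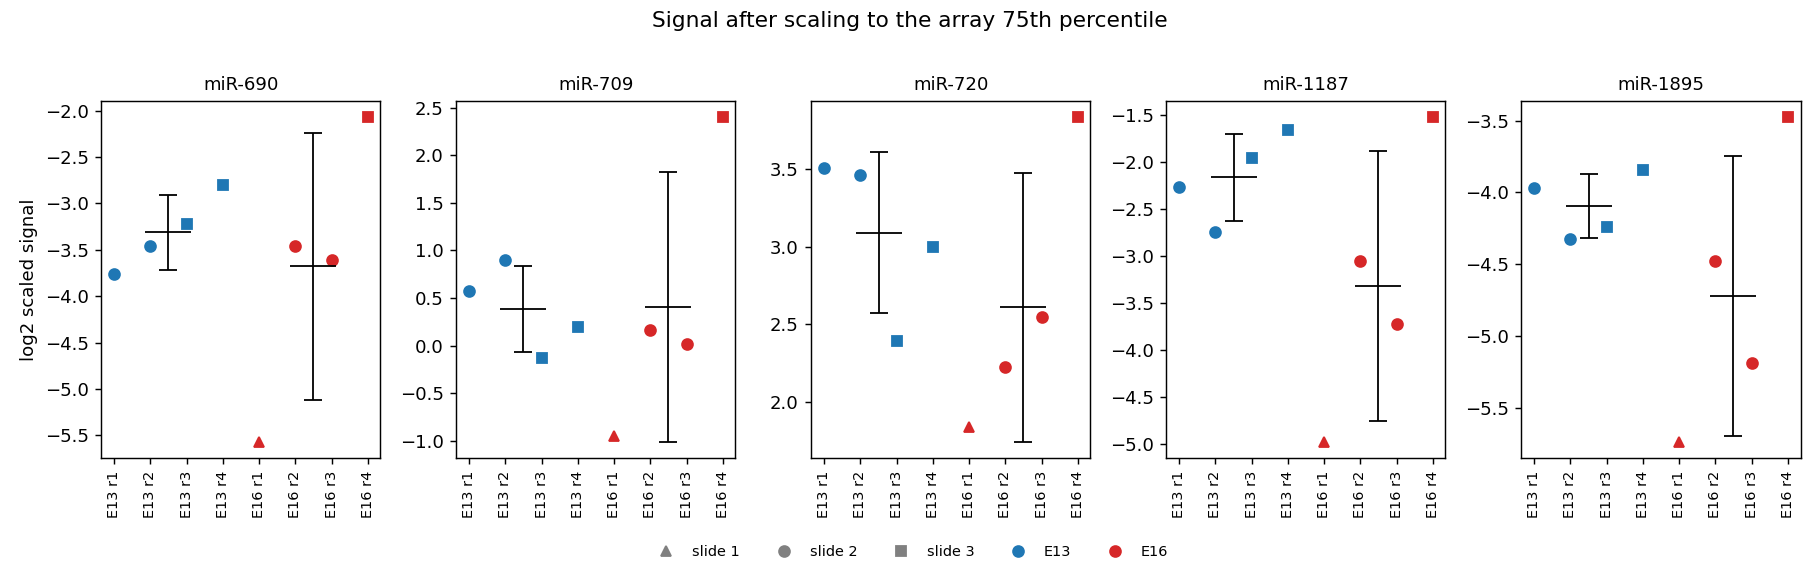
Log2 signal of the brightest probe after division by the array's 75th percentile, by array; black bars give the stage mean and SD (n = 4), colour the stage and symbol the slide. In each panel E16 replicate 1 is the lowest and E16 replicate 4 the highest of the 8 arrays.

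The difference on which the miRNAs were picked, E16 replicate 4 minus E16 replicate 1 in log2 scaled signal, was 3.498 for miR-690, 3.45 for miR-1187, 3.35 for miR-709, 2.26 for miR-1895 and 2.003 for miR-720. These were ranks 2, 3, 4, 8 and 10 of the 76 tested miRNAs above background on both arrays, whose median was -0.34. The 5 miRNAs were among 12 of the 76 that were at least 2-fold higher on replicate 4 (15.8%), a share from which nothing is read, since this contrast chose them. The others of the 10 highest were miR-467f (3.65), miR-574-5p (3.07), miR-466i (3.0002), miR-466f-3p (2.90) and let-7d* (2.07), and miR-328 followed at 1.70. Each array here stands alone, and the slide differed between the 2 arrays, so that slide and array cannot be told apart.

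Without scaling, the same differences were 1.01 for miR-690, 0.97 for miR-1187 and 0.87 for miR-709, and they changed sign for miR-1895 (-0.23) and miR-720 (-0.48). Of the 76 miRNAs, 7 were higher on replicate 4 without scaling (9.21%), and the median of all 76 was -2.83. In processed signal the 5 miRNAs thus differed at most 2.02-fold between the arrays, while the typical miRNA was far dimmer on replicate 4. Their ranks among the 76 did not depend on this scaling, which shifts all miRNAs of an array by one amount. Background correction did change the size. With the normexp method and its offset of 50, the differences were 2.26 for miR-690, 2.34 for miR-1187, 2.77 for miR-709, 1.98 for miR-1895 and 1.53 for miR-720.

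**Figure D3:**
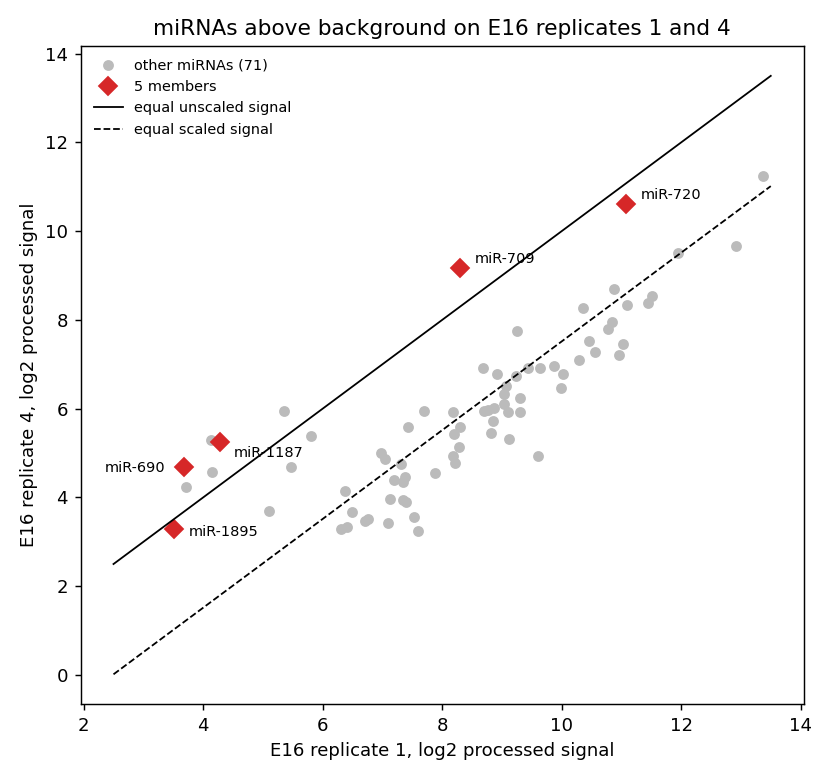
Log2 processed signal on E16 replicate 4 against E16 replicate 1 for the 76 tested miRNAs above background on both; the solid line marks equal unscaled signal and the dashed line equal scaled signal, 2.49 log2 units lower. The 5 miRNAs (red) lie near the solid line, and most others near or below the dashed one.

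Whether these RNAs differ with the age of the cortex is the question of the E16 against E13 comparison. Over all 8 arrays, none of the 5 miRNAs passed the test (limma, Benjamini-Hochberg adjusted over 153 miRNAs, threshold 0.05), where 33.3% of tested miRNAs passed, 11 of them higher (7.19%) and 40 lower (26.1%) at E16. miR-690 had scaled log2 means of -3.31 ± 0.41 at E13 and -3.68 ± 1.44 at E16 (SD, n = 4 each), a difference of -0.37 (SE 0.63, 95% confidence interval -1.79 to 1.06, limma adjusted p = 0.66). miR-709 had 0.38 ± 0.45 and 0.41 ± 1.42, a difference of 0.024 (SE 0.62, interval -1.39 to 1.44, limma adjusted p = 0.97). miR-720 had 3.09 ± 0.52 and 2.61 ± 0.87, a difference of -0.48 (SE 0.43, interval -1.47 to 0.50, limma adjusted p = 0.40). These intervals reach past a 2-fold change on one side or both, so that changes of that size are not excluded by them.

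The remaining pair had the larger differences. miR-1187 had scaled log2 means of -2.16 ± 0.46 at E13 and -3.32 ± 1.44 at E16 (SD, n = 4 each), a difference of -1.16 (SE 0.63, 95% confidence interval -2.59 to 0.28, limma adjusted p = 0.18). miR-1895 had -4.09 ± 0.22 and -4.72 ± 0.98, a difference of -0.63 (SE 0.43, interval -1.60 to 0.35, limma adjusted p = 0.27). The median difference of the 5 was -0.48, beside -0.40 for all 153 tested miRNAs. The wide spread at E16 is part of how the 5 were picked, and it enters the standard errors. Taking the percentile over all mouse probes, most of which lie near background, moved the median of all tested miRNAs to 0.42 and that of the 5 to 0.34, with differences of 0.46 for miR-690, 0.34 for miR-720, 0.19 for miR-1895, 0.84 for miR-709 and -0.34 for miR-1187, and none of them passed while 41.2% of all tested miRNAs did.

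The fit was repeated without the 2 arrays that entered the choice, leaving 4 E13 and 2 E16 arrays, both of the latter on slide 2. The E13 arrays lay on slides 2 and 3, so that slide is partly mixed into the stage differences of this fit. miR-1187 was then lower at E16 by a log2 difference of -1.23 (2.34-fold, SE 0.32, interval -1.98 to -0.48, limma adjusted p = 0.018). Among E13 arrays miR-1187 was higher on slide 3 by 0.69. Within slide 2 alone its stage difference was -0.88 (limma adjusted p = 0.10) and did not pass. miR-1895 was lower by -0.74 (1.67-fold, SE 0.24, interval -1.30 to -0.18, limma adjusted p = 0.044), but only 1 of the 2 E16 arrays, replicate 2, measured it above background, so that its size and call rest in part on a value not above background. Both differences are of scaled signals. Unscaled, E16 replicate 2 had miR-1187 at 89.9, within the E13 range of 33.8 to 126, and miR-1895 at 33.5, above all E13 arrays. E16 replicate 3 lay below all E13 arrays for both, at 21.4 and 7.72. miR-720 (-0.71, SE 0.32, limma adjusted p = 0.11), miR-709 (-0.29, adjusted p = 0.41) and miR-690 (-0.22, adjusted p = 0.51) did not pass. In this fit 30.7% of the 153 miRNAs were lower and 7.84% higher, and the 2 of 5 that fell are to be read against that share. Leaving out E16 replicate 4 alone took miR-1187 (-1.76), miR-1895 (-1.04) and miR-720 (-0.89) past the threshold and left miR-690 (-0.90) and miR-709 (-0.64) short of it, with 35.3% of all miRNAs lower. E16 replicate 1, chosen for its low values, is still in that fit, so that the choice itself favours the lower direction and nothing is read from these values. Leaving out E16 replicate 1 alone gave -0.61 for miR-1187, -0.29 for miR-1895, -0.22 for miR-720, 0.48 for miR-709 and 0.27 for miR-690, none of which passed, while 38.6% of all miRNAs did. E16 replicate 4, chosen for its high values, is still in this fit. The choice thus favours the higher direction in it, and nothing is read from these values either.

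Slides 2 and 3 differed in direction for 4 of the 5 miRNAs, a difference that was not tested. The only E16 array of slide 3 was chosen for high values of these miRNAs, so that nothing is read from this count. On slide 2, with 2 arrays per stage and none of the 2 arrays used in the choice, miR-720 was lower at E16 by -1.10 (2.15-fold, SE 0.19, limma adjusted p = 0.021), while 16.3% of all miRNAs were lower. Its unscaled signals on this slide overlapped, with 1847 and 3498 at E13 and 3491 and 1643 at E16. The 75th percentiles of these arrays were 162 and 317 at E13 and 748 and 282 at E16. The call is therefore one of scaled signals, and no other scaling was run within slide 2. miR-1187 (-0.88, adjusted p = 0.10), miR-1895 (-0.69, adjusted p = 0.15), miR-709 (-0.65, adjusted p = 0.077) and miR-690 (0.077, adjusted p = 0.76) did not pass there, and for miR-1895 E16 replicate 3 was again not above background. On slide 3, where E16 replicate 4 was the only E16 array, miR-709 was at 2.37, miR-720 at 1.14, miR-690 at 0.94, miR-1895 at 0.57 and miR-1187 at 0.29. That lone array entered the choice, so these are given as a description of it. With the slide as a fixed block, under which E16 replicate 1 carries no weight, the differences were 0.56 for miR-709, 0.42 for miR-690, -0.20 for miR-720, -0.19 for miR-1895 and -0.41 for miR-1187, and none passed, where 32% of all tested miRNAs did. E16 replicate 4 keeps its weight under this block, so that the choice favours the higher direction and nothing is read from these values.

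**Figure D4:**
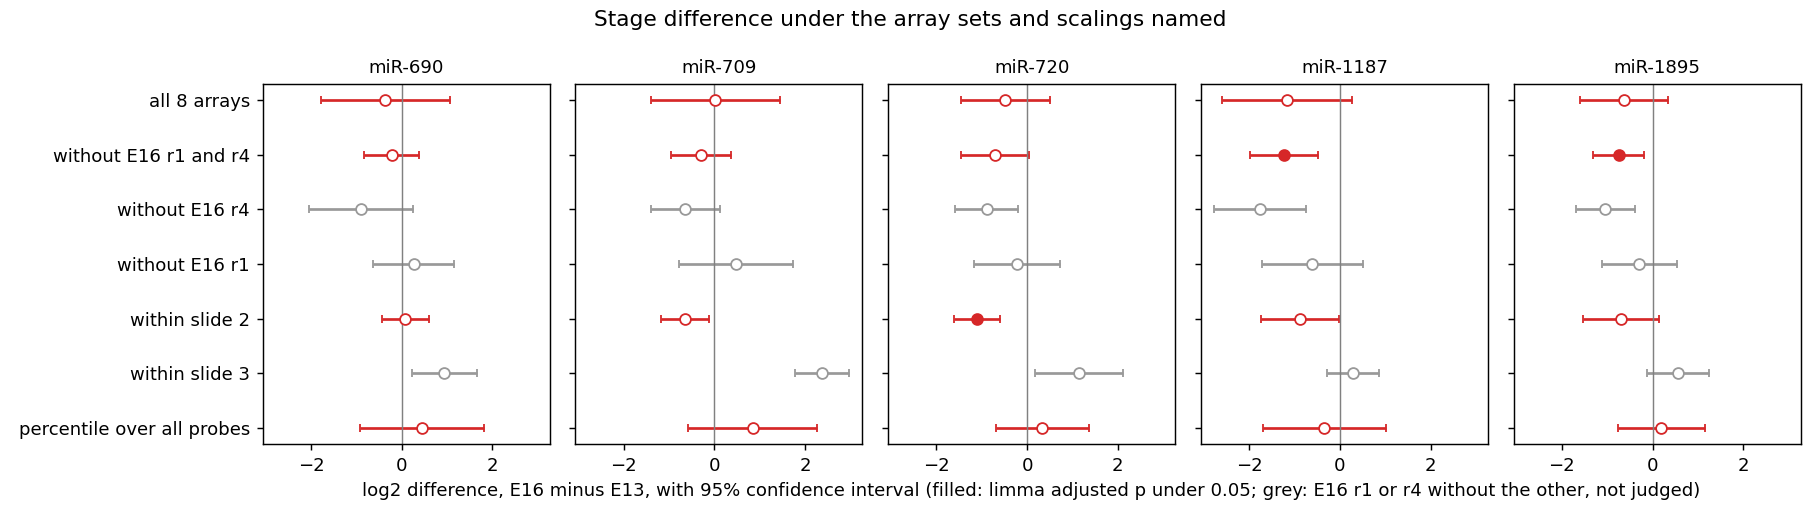
Log2 difference of E16 minus E13 for each miRNA with its 95% confidence interval, for all arrays, without 1 or 2 named E16 arrays, within slides and for the percentile of all mouse probes; filled points had a limma adjusted p under 0.05, and grey points, whose fits hold only one of the E16 arrays used in the choice, were not judged. Over all 8 arrays no point is filled, and the 3 filled points are miR-1187 and miR-1895 without E16 replicates 1 and 4 and miR-720 within slide 2.

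The 4 E13 arrays did not enter the choice, and they lie 2 on slide 2 and 2 on slide 3, the slide of E16 replicate 4. Between them the miRNAs split in direction. miR-1187 was higher on slide 3 by 0.69 (SE 0.28) and miR-690 by 0.60 (SE 0.28), whereas miR-709 was lower by -0.71 (SE 0.28) and miR-720 by -0.79 (SE 0.28), and miR-1895 differed by 0.11 (SE 0.28). The SE is the same in all 5 because limma assigned them a common variance. It does not measure the spread of each miRNA, and the p-values of this fit rest on it. In the 4 miRNAs other than miR-1895 both arrays of one slide lay beyond both of the other, as they did in 52.3% of all tested miRNAs. None passed after adjustment (limma adjusted p = 0.18 for miR-1187, miR-709 and miR-720, 0.25 for miR-690 and 0.92 for miR-1895), and of 153 miRNAs limma called 0 (0%), with 24 at an unadjusted p under 0.05. On the total signal per miRNA in place of the brightest probe, limma called 5. Without scaling, where the median of all tested miRNAs was 0.83 higher on slide 3, the differences were 1.44 for miR-1187, 1.34 for miR-690, 0.85 for miR-1895, 0.035 for miR-709 and -0.050 for miR-720.

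The 5 miRNAs differed in how their pattern over the 8 arrays resembled that of others. As a description over 8 scaled values that share their arrays, miR-1187 and miR-1895 ran closest together (Pearson's r = 0.97), followed by miR-690 with miR-1187 (0.90), miR-709 with miR-720 (0.88) and miR-690 with miR-1895 (0.87). The lowest were miR-709 with miR-1187 (0.67) and miR-690 with miR-720 (0.67). Among tested miRNAs outside the 5, those most like miR-1187 were miR-574-5p (r = 0.996) and miR-466f-3p (0.988), those most like miR-1895 were miR-574-5p (0.967) and miR-467f (0.953), and those most like miR-690 were miR-467f (0.916) and miR-466i (0.885). For miR-709 they were miR-181b (0.956) and miR-328 (0.915), and for miR-720 miR-181d (0.938) and miR-702 (0.896). Part of each r comes from E16 replicates 1 and 4, on which the 5 were picked.

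Of the companions of miR-1187, miR-1895 and miR-690, those found in RefSeq (GRCm38.p6) hold long 2-base repeats. Their mature sequences are shown to set beside that of miR-1187 above, with the seed in capitals.
miR-574-5p: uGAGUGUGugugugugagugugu
miR-467f: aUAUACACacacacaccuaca
miR-466i-3p: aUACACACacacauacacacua
miR-574-5p alternates U and G over 13 bases, and the others repeat C and A in the opposite sense, so that a probe of CA repeats reads the first kind and a probe of TG repeats the second. The E16 minus E13 difference was -1.22 (SE 0.58) for miR-574-5p, -1.17 (SE 0.64) for miR-467f, -1.13 (SE 0.53) for miR-466i and -1.26 (SE 0.53) for miR-466f-3p, close to the -1.16 of miR-1187, and none passed (limma adjusted p from 0.093 to 0.18). These companions were picked by their likeness. Besides miR-1187, 4 tested miRNAs had a probe with CA repeats, of which 1 passed as higher and 1 as lower, with a median stage difference of -0.56. Of the 2 of these above background on both E16 replicates 1 and 4, let-7b differed between those arrays by 0.30 and miR-574-5p by 3.07. Whether shared repeats bear on the likeness was not tested.

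The companions of miR-709 and miR-720 differed less between E16 replicates 4 and 1 than those miRNAs did. Beside miR-709, at 3.35, miR-181b differed by 0.74 and miR-328 by 1.70. Beside miR-720, at 2.003, miR-181d differed by 0.63 and miR-702, not above background on both of these arrays, by 1.42. In stage this did not hold throughout. Stage differences were 0.080 (SE 0.19) for miR-181b and 0.11 (SE 0.39) for miR-328, beside 0.024 for miR-709. They were -0.11 (SE 0.17) for miR-181d and -0.996 for miR-702, beside -0.48 for miR-720. None of these companions passed. A high r therefore stands here beside changes of unequal size. miR-702 and miR-689, the neighbours by registry number, had stage differences of -0.996 (SE 0.35, limma adjusted p = 0.056) and -0.29 (SE 0.47, adjusted p = 0.65), so that 0 of these 2 passed in either direction, and their median was -0.64.

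The 2 probes of a miRNA differed in brightness. For miR-709 the probe with 1 more base was 19.1 to 27.4 times as bright as the shorter one on the same array, with 241 to 835 against 11.5 to 38.7. For miR-720 it was 5.04 to 6.82 times as bright. The ratio was 1.33 to 1.82 for miR-1187 and 0.84 to 1.13 for miR-690. For miR-1895, whose shorter probe was well above background on 2 of 8 arrays, it was 1.59 and 1.62 on those 2. Thus a single C at the end of an otherwise identical miR-709 probe went with a larger change in signal than any difference between arrays for the same probe (at most 3.46-fold for the longer one). Brightness therefore cannot be compared between different probes as a measure of how much RNA is present.

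**Figure D5:**
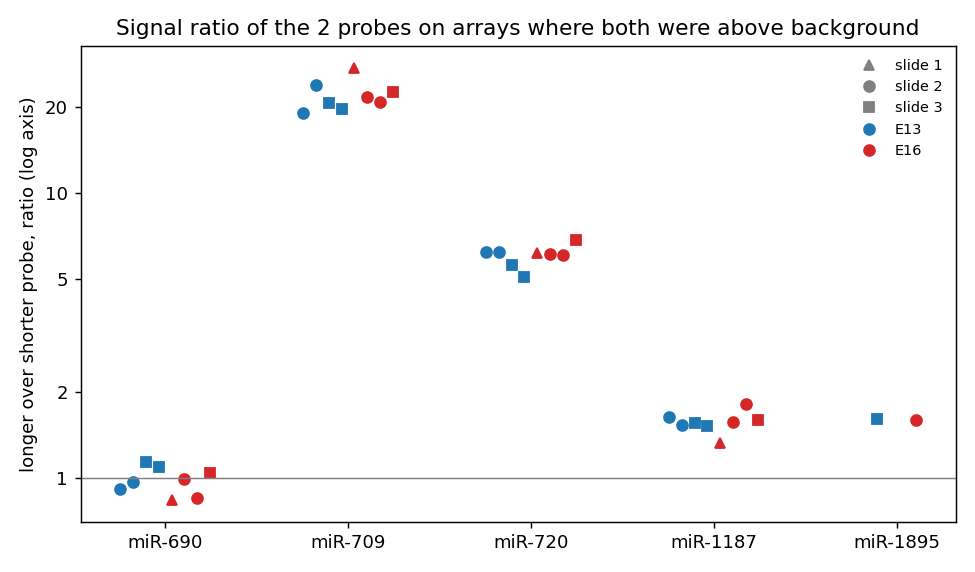
Ratio of the processed signals of the longer and the shorter probe of each miRNA (log axis), 1 point per array on which both were well above background (8 arrays, but 2 for miR-1895), coloured by stage with the symbol giving the slide. The miR-709 ratios lie between 19.1 and 27.4 and the miR-690 ratios around 1.

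Differences between arrays were alike for both probes of the other 4 pairs. From E16 replicate 1 to replicate 4 the shorter and longer probes of miR-709 differed by 3.64 and 3.35 log2 units, those of miR-720 by 1.86 and 2.003, those of miR-690 by 3.498 and 3.82 and those of miR-1187 by 3.19 and 3.45. The shorter miR-1895 probe was not above background on either array, and no difference is given for it. The stage difference of the shorter and longer probes was -0.12 and 0.024 for miR-709, -0.61 and -0.48 for miR-720, -0.37 and -0.51 for miR-690 and -1.16 and -1.16 for miR-1187. Within a pair these differed by less than the standard errors of 0.43 to 0.63 given above.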

How the data were processed

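The files deposited by the authors are the scanner output of each array and a single table of values. Agilent Feature Extraction 10.7.3.1 made the former on mm9 coordinates, per the file headers and, for the version, the submitters' processing notes. The deposited scanner files give intensity values per spot (mean, local background, background-subtracted processed signal, total signal per miRNA), not scaled between arrays, and other columns of flags of 0 or 1. The table of values, also deposited, is in log2 for 145 probes of 86 miRNAs. Its array medians were 6.51, 6.41, 6.50 and 6.48 at E13 and 6.40, 6.46, 6.44 and 6.45 at E16 (replicates 1 to 4), and across probes its values correlated with the log2 processed signals of the same array at r = 0.951 to 0.999, so that scale and direction are known and the method of normalization is not. It served as an alternative.

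Control spots and spots with an outlier flag (2.01% to 3.86% per array) were left out, no spot was saturated, and the other spots of a probe were averaged. A probe counted as well above background where this held for a share of at least 0.5 of its spots. Signals were divided by the array's percentile 75 over the 126 probes above background on all 8 arrays, floored at percentile 1 of detected signals (log2 -5.96), and log2 was taken. The brightest probes of the 5 miRNAs were above the floor on all arrays, and the shorter miR-1895 probe was at it on E16 replicates 1 and 3. The brightest probe stood for its miRNA. miRNAs above background on at least 4 arrays were tested, 153 in all, with limma 3.58.1 in R 4.3.3 (lmFit, eBayes, two-sided, Benjamini-Hochberg) after a test on simulated data. The number of arrays limits the precision.

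The 5 miRNAs and all lists were chosen with earlier results of these data known. Named besides them are the 2 tested miRNAs most like each by Pearson's r over 8 arrays, the 5 others with the largest difference between E16 replicates 4 and 1, and up to 4 tested miRNAs of the number blocks. Stage and replicate came from the labels. Other scalings, normexp, probe summaries, filters, slide and replicate blocks, single slides and left-out arrays were tried as alternatives.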

Additional observations from a re-analysis of the deposited data

How the results depend on the processing

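In the E16 minus E13 comparison none of the 5 passed the test under any scaling, background or probe summary that was run. Directions changed for miR-690 with quantile normalization (0.065), median centring (0.081), the all-probe percentile (0.46), the deposited value table (0.18), a slide block (0.42), slide 2 alone (0.077) and slide 3 alone (0.94), for miR-709 with quantile normalization (-0.073), normexp correction (-0.0032), the total signal (-0.064), the deposited value table (-0.061), within slide 2 (-0.65) and without E16 replicates 1 and 4 (-0.29), for miR-720 with the all-probe percentile (0.34) and within slide 3 (1.14), for miR-1187 within slide 3 (0.29) and for miR-1895 with the all-probe percentile (0.19) and within slide 3 (0.57). Within slide 3, where E16 replicate 4 stands alone, all 5 were positive, with miR-709 at 2.37. That array entered the choice, so the calls of this fit were not judged in either direction. Among fits holding both or neither of E16 replicates 1 and 4, miR-720 passed within slide 2 (-1.10). With only those 2 arrays left out, which leaves E16 on slide 2 alone, miR-1187 (-1.23) and miR-1895 (-0.74, with 1 of 2 E16 arrays above background) passed. Leaving out 1 array at a time gave -0.90 to 0.27 for miR-690 (positive at 0.27 without E16 replicate 1), -0.64 to 0.48 for miR-709 (negative without E13 replicate 3, -0.15, E13 replicate 4, -0.039, and E16 replicate 4, -0.64), -0.89 to -0.22 for miR-720, -1.76 to -0.61 for miR-1187 and -1.04 to -0.29 for miR-1895, and without E16 replicate 4 the last 3 passed at -0.89, -1.76 and -1.04 in a fit that keeps the low E16 replicate 1. The fits without E16 replicate 1 and with a slide block keep the high E16 replicate 4. The cause of these changes was not tested.

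Over all tested miRNAs, 11 were higher and 40 lower, and the median difference of -0.40 became 0.42 with the all-probe percentile, -0.092 with quantile normalization, 0.047 with median centring, 0.0026 without scaling and -0.20 with normexp correction. The 5 miRNAs did not all follow these shifts: with quantile normalization miR-720 (-0.59) and miR-709 (-0.073) moved down. The counts were 47 and 16 with the all-probe percentile, 21 and 29 with quantile normalization, 30 and 23 with median centring, 1 and 0 without scaling, 5 and 2 with normexp correction, 13 and 11 in the deposited value table, 9 and 10 for miRNAs above background on all 8 arrays (fewer miRNAs tested), 9 and 25 within slide 2 and 14 and 88 within slide 3. Leaving out 1 array gave 9 to 17 higher and 29 to 54 lower. With the replicate number as a block, where deviations of same-numbered arrays from their stage means correlated at only -0.10, 0.07, 0.27 and -0.15, the differences were the same by construction (-0.37, 0.024, -0.48, -1.16 and -0.63 in the order above), and 10 were higher and 35 lower.

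Between slides within E13, the sign changed for miR-690 with normexp correction (-0.17), for miR-709 without scaling (0.035) and for miR-1895 with the all-probe percentile (-0.00022), quantile normalization (-0.058), normexp correction (-0.40) and without E13 replicate 2 (-0.072) or 4 (-0.089), with a range of -0.089 to 0.30 over the arrays left out. Limma called 5 miRNAs higher with the total signal and 1 lower in the deposited value table, where it otherwise called 0.

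The difference of E16 replicate 4 minus replicate 1 moved without scaling (1.01, 0.87, -0.48, 0.97 and -0.23 for miR-690, miR-709, miR-720, miR-1187 and miR-1895), with normexp correction (2.26, 2.77, 2.34 and 1.98 for miR-690, miR-709, miR-1187 and miR-1895), in the deposited value table (2.37 for miR-690 and 2.19 for miR-1187) and with the total signal (3.97 for miR-690 and 1.88 for miR-1895), and for miR-1895 with quantile normalization (2.03) and the mean of all probes (1.99, its shorter probe being at the floor on replicate 1). miR-1895 was not analysed in the deposited value table, and it was not well above background on E16 replicate 3.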
